A study of Homo sapiens with 12 samples.

Results

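The comparison described here set the 2 libraries of PANC-1 cells whose count files are named for SIK3 siRNA and TNF for 4 h over the 2 named for SIK3 siRNA and TNF for 30 min. These 4 libraries were chosen by the words in the file names, from 12 libraries in 6 groups of 2 biological replicates. PANC-1 is a human pancreatic ductal adenocarcinoma cell line, and total RNA was sequenced after transfection for 72 h, with recombinant human TNF-α given at 100 ng/mL. By name, the pair named SIK3 4 h and the pair named SIK3 30 min thus share the cell line, the SIK3 siRNA and the TNF dose and differ in the time under TNF. Another pair with the SIK3 name carries the word CLM, which the labels do not explain, in place of a time, and 3 pairs named Scr1 hold the control siRNA with the same 3 words. The knockdown rests on 1 siRNA against SIK3 in 1 cell line.

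With CLM counted as unstimulated, which the labels do not state, the file names and the sample titles disagree for 8 of the 12 libraries. By title, the pair named SIK3 4 h is SIK3 siRNA (called siAS1 there) with TNF for 4 h, and the pair named SIK3 30 min is control siRNA with TNF for 4 h. The pair named SIK3 CLM is by title SIK3 siRNA with TNF for 30 min. The same 4 libraries are compared under both and each value below holds for both. Under the names it is a change with time, and under the titles a change with SIK3 siRNA. Below, "the pair named 4 h" and "the pair named 30 min" stand for the names with SIK3, and values of a pair are given for the replicate letter B and then C.

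SIK3 (ENSG00000160584.15, GRCh38 chromosome 11, 116843402 to 117098437, minus strand), the kinase that the siRNA targets, had 18.2 and 22.7 normalised CPM (read counts scaled to the size of the library) in the pair named 4 h, against 17.2 and 24.0 CPM in the pair named 30 min. The groups overlapped and the log2 fold change was -0.01 ± 0.12 (SE, adjusted p = 0.965, edgeR quasi-likelihood test). Across all 12 libraries SIK3 ran between 16.3 and 24.0 CPM in the 6 with SIK3 in the name and between 34.3 and 68.6 CPM in the 6 with Scr1, with no overlap (exact permutation test, 2-sided, p = 0.002165, the smallest that 924 divisions allow). Divided by title, the range was 16.3 to 68.6 CPM with siAS1 and 17.2 to 65.2 CPM with siCtrl1 (exact permutation test, p = 0.431). The level of the targeted gene therefore followed the file names and went against the titles of the pair named 30 min. It does not check the words for time.

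**Figure D1:**
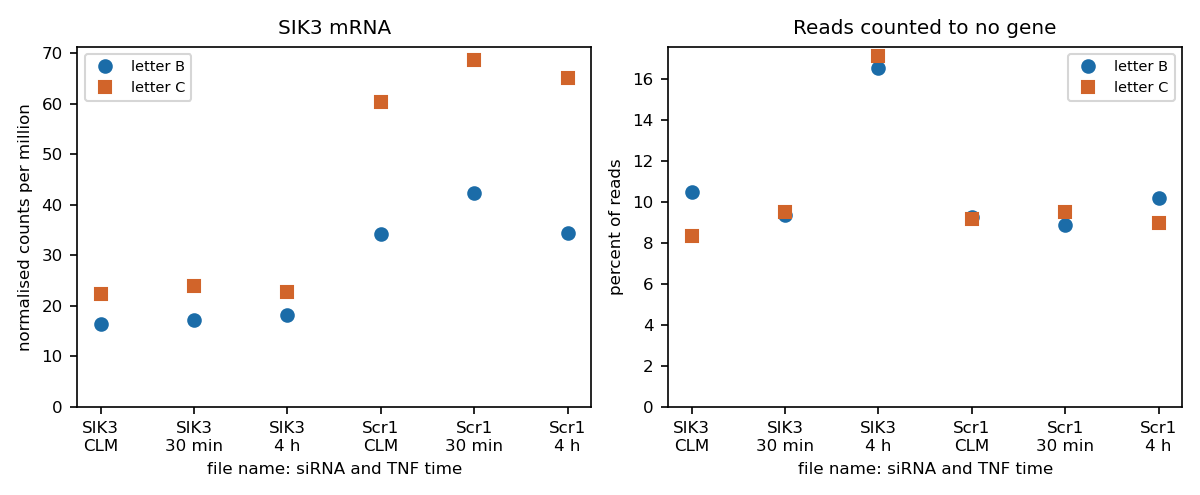
Left, SIK3 in normalised CPM, and right, the percent of reads that the authors' counting assigned to no gene, for each of the 12 libraries by file name, with circles for letter B and squares for letter C. SIK3 was between 16.3 and 24.0 CPM in all 6 libraries with SIK3 in the name, and the pair named SIK3 4 h stood at 16.5 and 17.1% of reads in no gene, above the other 10 libraries.

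TNF binding to its receptor activates the IκB kinases, which release NF-κB dimers to the nucleus, and mitogen-activated protein kinases, which act on factors already bound at immediate early genes. Transcripts of the immediate early genes are made within minutes and decay fast, whereas many NF-κB targets build up over hours, and some of these encode the inhibitors that end the response. SIK3 is a salt-inducible kinase that phosphorylates CRTC coactivators of CREB and class IIa histone deacetylases, which keeps both in the cytoplasm.

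Of 16695 genes tested, 4647 (27.8%) differed between the pair named 4 h and the pair named 30 min at an adjusted p under 0.05. Of these, 2472 (14.8% of genes tested) were higher and 2175 (13%) were lower in the pair named 4 h, and the median fold of the called genes was 1.504 among the higher and 1.27 among the lower. Changes of at least 2-fold were found for 720 higher and 112 lower genes, and changes of at least 4-fold for 245 and 15. The split depended on the scaling: with library totals in place of TMM factors, 2109 genes were higher and 3034 lower. The median log2 fold change over all genes tested was 0.01 with TMM factors and -0.04 with library totals. Without the replicate letter as a block, 1180 genes were called, 823 higher and 357 lower.

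Gene counts were 14874894 and 18118651 in the pair named 4 h, against 18567878 and 19783290 in the pair named 30 min, and 13535825 to 22699756 over all 12 libraries. The share of reads counted to no gene was 16.5 and 17.1% in the pair named 4 h, against 9.37 and 9.50% in the pair named 30 min, and 8.35 to 10.5% over the 10 other libraries. Multimapping reads took 5.42 and 10.2% of reads in the pair named 4 h, against 5.82 and 27.8% in the pair named 30 min, and letter C of the pair named 4 h stood below the 27.8 to 45.3% of the 5 other libraries lettered C. Of uniquely mapped reads, those in no gene were 18.7 and 20.9% in the pair named 4 h, against 10.6 and 14.4% in the pair named 30 min. On that base the 5 other libraries lettered B had 10.6 to 12% and the 5 others lettered C 14.4 to 17.4%. Reads in no gene include introns and regions between genes, and the part of this gap in the changes below was not tested. Fewer cells of a kind and less RNA per cell cannot be told apart in these bulk libraries. Of 10 markers of PANC-1 cells, 4 were higher and 2 lower in the pair named 4 h, against 14.8% and 13% over all genes tested. KRT8, KRT18 and VIM were at 1351 CPM or more in all 4 libraries. Of 8 leukocyte markers, 4 or 5 had no count in each of the 4 libraries and the list summed to 4.77 and 4.13 CPM in the pair named 4 h, against 2.64 and 2.65 CPM in the pair named 30 min, nearly all of it ITGAM, with CD3D at 0. Endothelial markers summed to 0.530 and 1.32 CPM in the pair named 4 h, against 0.712 and 0.637 CPM in the pair named 30 min, with TEK and CLDN5 at 0. Fibroblast markers summed to 9.15 and 15.4 CPM in the pair named 4 h, against 8.65 and 14.7 CPM in the pair named 30 min, mostly COL1A1, with DCN at 0. The part of these markers in the results was not tested.

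Immediate early transcription factors moved both ways, with the widest falls in EGR2, FOS and EGR1. Of 22 listed, all tested, 10 fell and 8 rose in the pair named 4 h, against 13% lower and 14.8% higher over all genes tested, with a median log2 fold change of -0.25 against 0.01 over all genes. EGR2, a zinc finger factor of the EGR family, had 2.39 and 4.51 CPM in the pair named 4 h, against 36.4 and 52.8 CPM in the pair named 30 min. It fell 12.8-fold (log2 -3.67 ± 0.14, adjusted p = 5.80e-14), and at 2.59 and 2.17 CPM in the pair named CLM its level was as low as in the pair named 4 h. FOS, a subunit of the AP-1 factor, had 20.6 and 20.2 CPM in the pair named 4 h, against 57.0 and 77.5 CPM in the pair named 30 min, a fall of 3.29-fold (log2 -1.72 ± 0.11, adjusted p = 1.36e-10). Its 2 libraries named CLM had 18.0 and 18.9 CPM. EGR1 had 23.8 and 56.8 CPM in the pair named 4 h, against 52.5 and 177 CPM in the pair named 30 min. Letter C was the higher of each pair, so the groups overlapped, and within each letter EGR1 was lower in the library named 4 h (log2 -1.43 ± 0.11, adjusted p = 1.43e-09). The call rested on the block, with an adjusted p of 0.379 without it.

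The other 7 that fell were NR4A1, EGR4, EGR3, NR4A2, FOSB, KLF10 and ATF3. NR4A1, an orphan nuclear receptor, averaged 15.2 ± 2.18 CPM in the pair named 4 h and 33.0 ± 5.58 CPM in the pair named 30 min (SD, n = 2 each), with a log2 fold change of -1.12. FOSB, another AP-1 subunit, averaged 39.3 ± 9.71 CPM in the pair named 4 h and 69.5 ± 39.9 CPM in the pair named 30 min (SD, n = 2 each; log2 -0.75). Genes given by their means, here and below, were chosen after their values were seen. Among the 8 that rose, MAFF, a small MAF protein that lacks an activation domain, had 68.2 and 60.6 CPM in the pair named 4 h, against 36.3 and 31.5 CPM in the pair named 30 min (1.90-fold, adjusted p = 6.61e-09), and 21.7 and 20.9 CPM in the pair named CLM. FOSL1, also an AP-1 subunit, averaged 224 ± 173 CPM in the pair named 4 h and 133 ± 104 CPM in the pair named 30 min (SD, n = 2 each; log2 0.76). In FOSB and FOSL1 the pairs overlapped. JUNB averaged 54.2 ± 4.40 CPM in the pair named 4 h and 54.7 ± 2.22 CPM in the pair named 30 min (SD, n = 2 each) and did not pass the test, while its mean in the pair named CLM was 19.1 CPM. Without the block, 5 members of the list were lower and 1 higher.

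**Figure D2:**
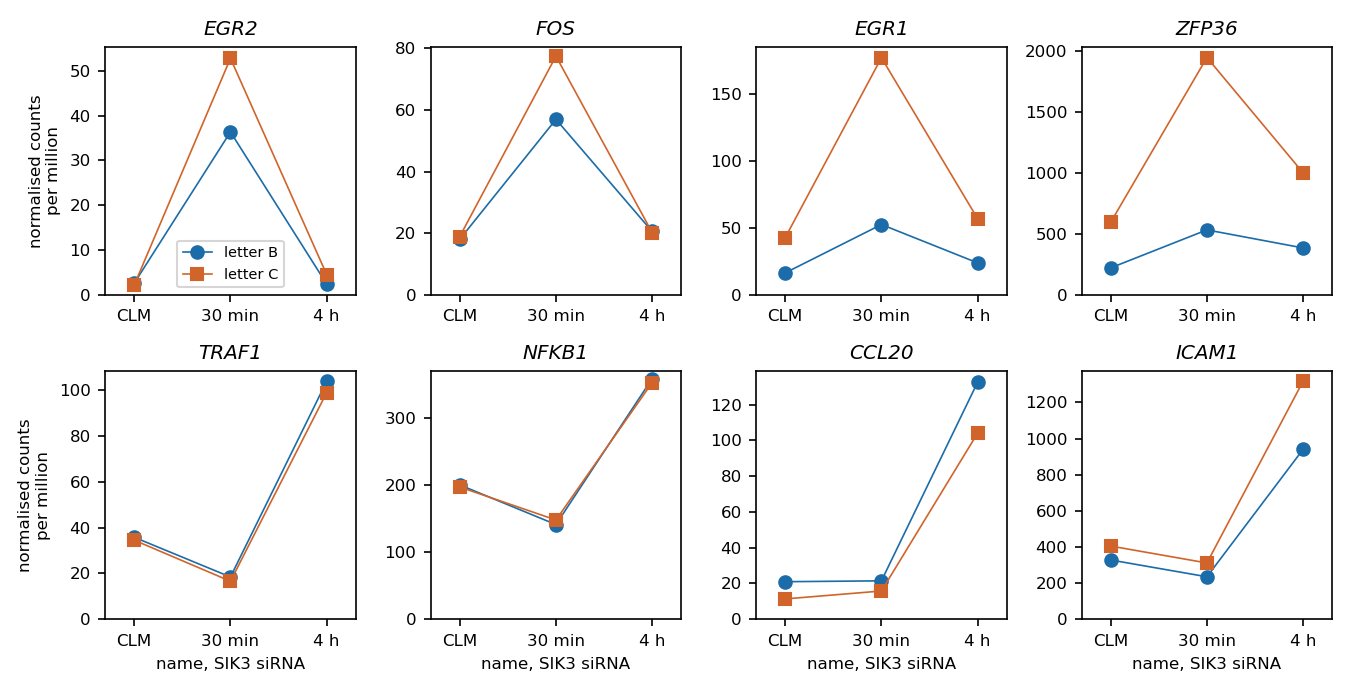
Normalised CPM of 8 genes in the 6 libraries named SIK3, ordered by the words CLM, 30 min and 4 h, with circles for letter B and squares for letter C. EGR2, FOS, EGR1 and ZFP36 peaked in the pair named 30 min in both letters, and TRAF1, NFKB1, CCL20 and ICAM1 were highest in the pair named 4 h.

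Promoters of the 3 called lower members with the smallest p are shown because they had the strongest calls of lower level in the pair named 4 h, from RefSeq on GRCh38.p14, 250 bases before to 50 after the gene's start. Capitals mark matches to 4 motifs, searched on both strands: the CArG box bound by serum response factor, the cyclic AMP response element TGACGTCA, the NF-κB decamer and TATAAA. Of 27305 promoters of this length, 1.29% held a CArG box, 1.98% the cyclic AMP response element, 5.72% the decamer and 12% TATAAA. EGR2 (chr10:62819118-62819417, minus strand), FOS (chr14:75278578-75278877, plus strand) and EGR1 (chr5:138465229-138465528, plus strand) read as follows.
EGR2: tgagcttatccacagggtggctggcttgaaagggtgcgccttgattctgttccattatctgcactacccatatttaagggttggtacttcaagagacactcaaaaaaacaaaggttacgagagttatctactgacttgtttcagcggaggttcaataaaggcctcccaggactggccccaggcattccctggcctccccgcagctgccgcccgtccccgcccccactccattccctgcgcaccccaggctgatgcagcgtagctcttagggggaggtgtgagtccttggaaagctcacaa
FOS: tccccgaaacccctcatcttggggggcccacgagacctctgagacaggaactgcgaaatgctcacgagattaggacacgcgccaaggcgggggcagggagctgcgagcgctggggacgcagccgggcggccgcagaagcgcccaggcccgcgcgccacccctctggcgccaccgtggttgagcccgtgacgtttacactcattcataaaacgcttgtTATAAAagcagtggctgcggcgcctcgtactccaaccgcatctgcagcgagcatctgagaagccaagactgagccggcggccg
EGR1: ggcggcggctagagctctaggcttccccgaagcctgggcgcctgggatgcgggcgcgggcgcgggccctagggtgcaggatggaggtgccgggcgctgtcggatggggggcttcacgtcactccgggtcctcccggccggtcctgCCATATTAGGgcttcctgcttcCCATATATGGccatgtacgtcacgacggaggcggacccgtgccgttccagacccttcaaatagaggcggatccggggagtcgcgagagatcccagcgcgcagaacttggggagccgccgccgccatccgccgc
The EGR1 window held 2 CArG boxes, which start 105 and 83 bases before the gene's start, and the FOS window held TATAAA, 33 bases before it. The EGR2 window held none of the 4 motifs, which says only that these letters are not in it. Over the 17 tested members of the list with a promoter sequence, 2 held a CArG box and 4 held TATAAA. The cyclic AMP response element was in 2 and the NF-κB decamer in 2.

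Immediate early regulators of signalling mostly moved the other way. Of 21 tested (22 listed), 15 rose and 6 fell, against 14.8% higher and 13% lower over all genes tested. The median log2 fold change was 0.65. DUSP5, a phosphatase of ERK, had 548 and 562 CPM in the pair named 4 h, against 289 and 306 CPM in the pair named 30 min (1.86-fold, adjusted p = 4.21e-11). IER5 had 92.8 and 93.9 CPM in the pair named 4 h, against 44.6 and 42.5 CPM in the pair named 30 min (2.14-fold, adjusted p = 7.60e-11). GADD45A, a stress-induced regulator of growth arrest, had 505 and 464 CPM in the pair named 4 h, against 278 and 272 CPM in the pair named 30 min (1.76-fold). BTG1, an antiproliferative factor, had 223 and 236 CPM in the pair named 4 h, against 118 and 133 CPM in the pair named 30 min (1.83-fold). The pairs did not overlap in any of these 4, as for 47.5% of all genes tested. The 6 that fell were DUSP4, IER2, DUSP2, DUSP6, IER3 and DUSP1, with log2 fold changes between -1.38 for DUSP4 and -0.16 for DUSP1. Without the block, 12 rose and 1 fell.

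Of 12 factors that destroy short-lived mRNAs, all tested, 5 were higher and 2 lower, against 14.8% and 13% over all genes tested. The share that fell was thus near that of genes at large. ZFP36 (tristetraprolin), which binds AU-rich elements and recruits deadenylases, had 384 and 999 CPM in the pair named 4 h, against 532 and 1944 CPM in the pair named 30 min, and 220.3 and 594 CPM in the pair named CLM. Within each letter it was lower in the library named 4 h (log2 -0.73 ± 0.08, adjusted p = 6.20e-07). Its relative ZFP36L1 had 15.1 and 35.1 CPM in the pair named 4 h, against 21.6 and 82.2 CPM in the pair named 30 min (log2 -0.96, adjusted p = 3.91e-06). Both pairs overlapped between letters, and without the block the adjusted p was 0.674 for ZFP36 and 0.6 for ZFP36L1. Their relative ZFP36L2 rose (log2 0.60), as did the 2 endoribonuclease genes of the ZC3H12 family. ZC3H12A (Regnase-1) had 18.1 and 23.1 CPM in the pair named 4 h, against 8.54 and 11.3 CPM in the pair named 30 min (2.08-fold, adjusted p = 4.48e-07). ZC3H12C had 91.3 and 96.5 CPM in the pair named 4 h, against 50.9 and 50.3 CPM in the pair named 30 min (1.85-fold, adjusted p = 3.90e-10). Without the block 2 of the 12 were higher and none lower.

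Genes listed as NF-κB inhibitors and feedback were mostly higher in the pair named 4 h. Of 15 tested (16 listed), 12 rose and TRAF3IP2 fell, against 14.8% higher and 13% lower over all genes tested. The median log2 fold change was 0.77. TRAF1, an adaptor of TNF receptors, had 104 and 99.1 CPM in the pair named 4 h, against 18.4 and 16.6 CPM in the pair named 30 min, a rise of 5.81-fold (log2 2.54 ± 0.07, adjusted p = 7.49e-16). The pair named CLM lay between them at 35.8 and 34.5 CPM. CYLD, a deubiquitinase, had 153 and 150.4 CPM in the pair named 4 h, against 65.0 and 59.9 CPM in the pair named 30 min (2.43-fold, adjusted p = 5.01e-12). NFKBIA, which encodes IκBα, had 553 and 566 CPM in the pair named 4 h, against 314 and 288 CPM in the pair named 30 min (1.87-fold, adjusted p = 2.15e-10). Both pairs stood above the 166 and 146 CPM of the pair named CLM. TNFAIP3 (A20), a ubiquitin-editing enzyme, averaged 115 ± 14.0 CPM in the pair named 4 h and 55.1 ± 13.1 CPM in the pair named 30 min (SD, n = 2 each; log2 1.07), with 21.1 CPM on average in the pair named CLM. NFKBIZ, a nuclear IκB protein, averaged 118 ± 8.27 CPM in the pair named 4 h and 130.3 ± 15.8 CPM in the pair named 30 min (SD, n = 2 each), which did not pass the test (log2 -0.15), and 38.6 CPM in the pair named CLM. Without the block, 11 rose.

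All 6 NF-κB subunit genes listed were tested and rose, against 14.8% higher over all genes tested. The median log2 fold change was 1.10. NFKB1, which encodes p105 and p50, had 358 and 352 CPM in the pair named 4 h, against 141 and 148 CPM in the pair named 30 min (2.46-fold, log2 1.30 ± 0.05, adjusted p = 1.20e-13). NFKB2, which encodes p100 and p52, had 296 and 332 CPM in the pair named 4 h, against 129.9 and 138 CPM in the pair named 30 min (2.34-fold, adjusted p = 3.05e-12). RELB had 64.3 and 64.6 CPM in the pair named 4 h, against 33.1 and 29.04 CPM in the pair named 30 min (2.08-fold). REL had 74.3 and 105 CPM in the pair named 4 h, against 29.4 and 53.2 CPM in the pair named 30 min (2.21-fold, adjusted p = 1.01e-08), and an adjusted p of 0.157 without the block. RELA had the smallest change of the 6, at a log2 of 0.41. Without the block, 3 of the 6 were called.

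The promoters of the 3 called higher inhibitors, feedback genes or subunits with the smallest p are given in the same way, because they had the strongest calls of higher level in these lists. TRAF1 lies at chr9:120929122-120929421, minus strand, NFKB1 at chr4:102501109-102501408, plus strand and NFKB2 at chr10:102393860-102394159, plus strand.
TRAF1: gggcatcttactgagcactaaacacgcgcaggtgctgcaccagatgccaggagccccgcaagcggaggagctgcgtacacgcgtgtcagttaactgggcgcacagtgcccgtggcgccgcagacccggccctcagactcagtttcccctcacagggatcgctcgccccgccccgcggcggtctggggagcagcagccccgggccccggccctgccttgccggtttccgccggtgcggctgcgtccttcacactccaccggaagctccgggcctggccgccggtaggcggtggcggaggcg
NFKB1: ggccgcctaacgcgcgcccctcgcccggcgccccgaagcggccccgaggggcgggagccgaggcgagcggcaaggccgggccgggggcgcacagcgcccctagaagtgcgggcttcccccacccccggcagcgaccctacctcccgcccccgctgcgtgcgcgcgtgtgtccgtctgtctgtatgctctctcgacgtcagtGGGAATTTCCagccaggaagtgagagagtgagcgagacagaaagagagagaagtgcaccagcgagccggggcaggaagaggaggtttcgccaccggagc
NFKB2: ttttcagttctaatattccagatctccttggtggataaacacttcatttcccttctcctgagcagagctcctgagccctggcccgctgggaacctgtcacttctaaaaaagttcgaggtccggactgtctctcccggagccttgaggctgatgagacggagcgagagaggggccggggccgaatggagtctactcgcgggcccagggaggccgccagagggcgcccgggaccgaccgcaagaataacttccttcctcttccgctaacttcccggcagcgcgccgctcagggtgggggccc
The NFKB1 window held an NF-κB decamer, which starts 49 bases before the gene's start, and the windows of TRAF1 and NFKB2 held none of the 4 motifs. The decamer was in 4 of 14 promoters of the inhibitors and feedback genes and in 3 of 5 promoters of the subunits, against 5.72% of all promoters, counts that describe these windows only.

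Chemokines were higher in the pair named 4 h for 8 of 15 tested (16 listed) and lower for CXCL3. Over all genes tested, 14.8% were higher and 13% lower. CCL20, which attracts CCR6-bearing lymphocytes and dendritic cells, had 133 and 104 CPM in the pair named 4 h, against 21.4 and 15.7 CPM in the pair named 30 min, a rise of 6.43-fold (log2 2.69 ± 0.10, adjusted p = 2.53e-14). Its pair named CLM had 20.9 and 11.3 CPM. CX3CL1 (fractalkine) had 231 and 348 CPM in the pair named 4 h, against 46.3 and 66.4 CPM in the pair named 30 min (5.12-fold, adjusted p = 8.68e-15). CXCL8, a neutrophil attractant, had 260.2 and 232 CPM in the pair named 4 h, against 81.3 and 58.2 CPM in the pair named 30 min (3.58-fold, adjusted p = 4.62e-13), with 40.0 and 32.0 CPM in the pair named CLM. CCL2, a monocyte attractant, had 794 and 1185 CPM in the pair named 4 h, against 254 and 365 CPM in the pair named 30 min (3.19-fold, adjusted p = 2.06e-15). The pairs did not overlap in any of these 4, which held for 47.5% of all genes tested. CXCL2 averaged 36.8 ± 5.48 CPM in the pair named 4 h and 35.0 ± 8.42 CPM in the pair named 30 min (SD, n = 2 each), and did not pass the test. Its mean in the pair named CLM was 12.2 CPM. CXCL3 averaged 7.34 ± 0.875 CPM in the pair named 4 h and 10.1 ± 0.333 CPM in the pair named 30 min (SD, n = 2 each; log2 -0.46). Without the block, 5 were higher and none lower.

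Of 21 cytokines and growth factors tested (25 listed), 14 rose and 2 fell, against 14.8% higher and 13% lower over all genes tested. The share that fell was not above that of genes at large. CSF1, the macrophage growth factor, had 634 and 1051 CPM in the pair named 4 h, against 224 and 362 CPM in the pair named 30 min (2.87-fold, adjusted p = 1.19e-14). HBEGF, an EGF receptor ligand, had 99.0 and 96.3 CPM in the pair named 4 h, against 51.6 and 46.1 CPM in the pair named 30 min (2.00-fold). INHBA, the activin A subunit, had 20.02 and 22.6 CPM in the pair named 4 h, against 8.80 and 10.8 CPM in the pair named 30 min (2.18-fold). The 2 that fell were AREG, with 19.8 and 15.6 CPM in the pair named 4 h, against 36.2 and 31.1 CPM in the pair named 30 min (1.91-fold lower, adjusted p = 9.05e-08), and VEGFA (log2 -0.37). TNF itself averaged 4.55 ± 2.13 CPM in the pair named 4 h and 2.33 ± 0.855 CPM in the pair named 30 min (SD, n = 2 each; log2 0.96), against 0.63 CPM in the pair named CLM. Without the block, 8 rose and 1 fell.

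Adhesion and matrix genes rose for 11 of 17 tested (20 listed) and none fell, against 14.8% higher and 13% lower over all genes tested. ICAM1, a ligand of leukocyte integrins, had 940.4 and 1318 CPM in the pair named 4 h, against 234 and 311 CPM in the pair named 30 min (4.13-fold, log2 2.046 ± 0.05, adjusted p = 2.73e-16), and 327 and 404 CPM in the pair named CLM. PLAU, the urokinase protease, had 793 and 738 CPM in the pair named 4 h, against 419 and 398 CPM in the pair named 30 min (1.87-fold). SDC4, a heparan sulphate proteoglycan, had 719 and 818 CPM in the pair named 4 h, against 404 and 422 CPM in the pair named 30 min (1.86-fold). Both libraries named 4 h lay above both named 30 min in these 3 genes. Pairs that did not overlap, in either direction, were found for 47.5% of all genes tested. VCAM1 was near the floor, with 33 reads over the pair named 4 h and 2 over the pair named 30 min. That is a ratio of 19.9 per scaled library, with an exact 95% interval of 5.09 to 171 that covers counting error only. With DESeq2 size factors 1 member fell and with library totals 2 did.

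Acute-phase and complement genes had the largest median of the lists, a log2 fold change of 1.59. Of 11 tested (16 listed), 7 were higher and none lower, against 14.8% and 13% over all genes tested. PTX3, a secreted pentraxin, had 239 and 209 CPM in the pair named 4 h, against 60.5 and 51.2 CPM in the pair named 30 min (4.02-fold, adjusted p = 8.68e-15). C3, the central complement protein, had 3.51 and 6.11 CPM in the pair named 4 h, against 0.610 and 1.13 CPM in the pair named 30 min (5.50-fold, adjusted p = 2.01e-07). SAA1, serum amyloid A, had 4.18 and 3.96 CPM in the pair named 4 h, against 1.73 and 0.980 CPM in the pair named 30 min (3.01-fold, adjusted p = 0.000129). C1QTNF1 had 2.59 and 2.64 CPM in the pair named 4 h, against 0.0508 and 0.196 CPM in the pair named 30 min (adjusted p = 1.41e-07). The pairs did not overlap in these 4 genes, as in 47.5% of all genes tested. SAA1 and its near copy SAA2 can share reads, so the value of SAA1 is uncertain.

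**Figure D3:**
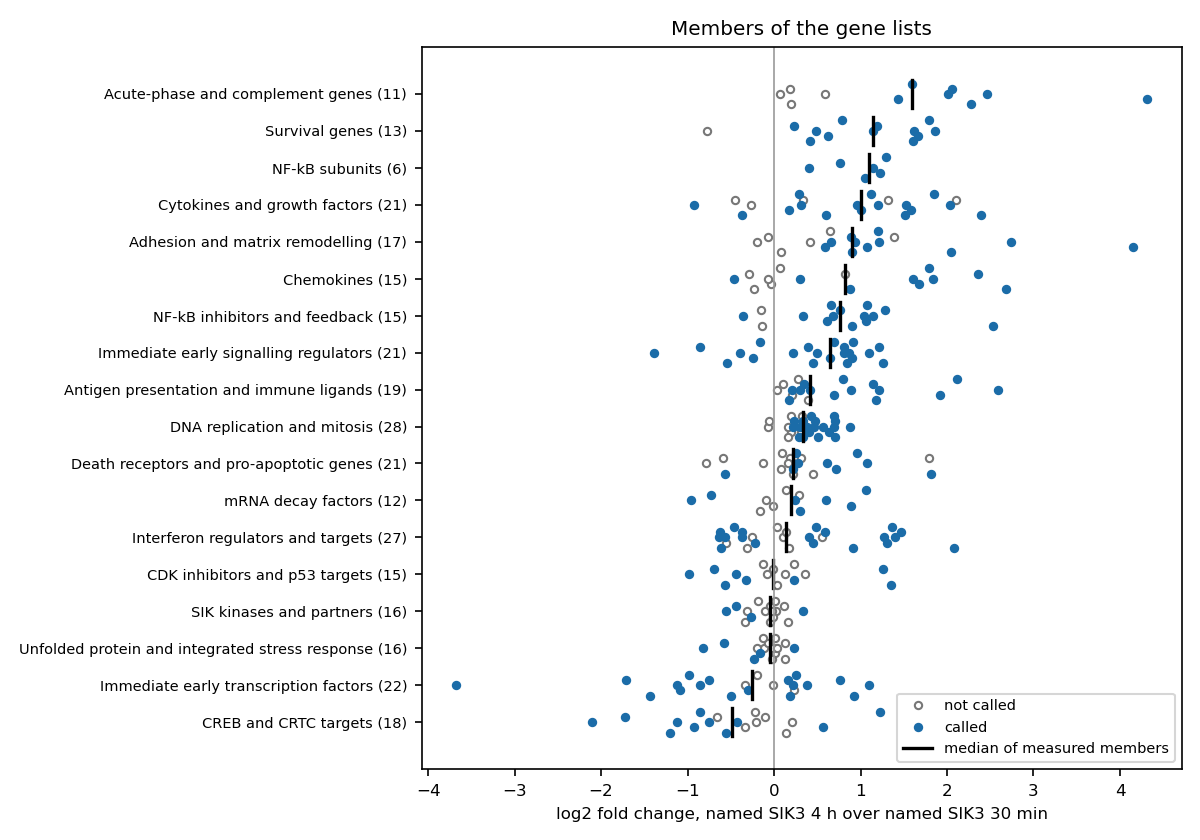
Log2 fold changes, the pair named SIK3 4 h over the pair named SIK3 30 min, of the tested members of 18 gene lists, with the number tested in brackets. Filled points passed an adjusted p of 0.05, open points did not, and the bar is the median of the list, from -0.49 for CREB and CRTC targets to 1.59 for acute-phase and complement genes.

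Survival genes rose for 12 of 13 listed and tested, against 14.8% of all genes tested, with a median log2 fold change of 1.15. BIRC3 (cIAP2), a ubiquitin ligase of the TNF receptor complex, had 2075 and 2048 CPM in the pair named 4 h, against 687 and 615 CPM in the pair named 30 min (3.18-fold, log2 1.67 ± 0.05, adjusted p = 1.87e-15). SOD2, the mitochondrial superoxide dismutase, had 1659 and 1727 CPM in the pair named 4 h, against 506 and 476 CPM in the pair named 30 min (3.46-fold, adjusted p = 2.06e-14). TNFAIP2 had 1428 and 1785 CPM in the pair named 4 h, against 428 and 457 CPM in the pair named 30 min (3.62-fold). BCL2A1, an anti-apoptotic BCL2 relative, had 126 and 104 CPM in the pair named 4 h, against 41.1 and 34.5 CPM in the pair named 30 min (3.05-fold). In each of these genes both libraries named 4 h were above both named 30 min, where 47.5% of all genes tested had no overlap in either direction. Without the block, 8 were called.

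Death receptors and pro-apoptotic genes rose for 8 of 21 tested (22 listed), TNFRSF1A fell and 12 were not called. Over all genes tested 14.8% were higher and 13% lower, so the share that fell was not above that of genes at large. BBC3 (PUMA), a BH3-only protein, had 16.6 and 19.7 CPM in the pair named 4 h, against 5.64 and 4.75 CPM in the pair named 30 min (3.52-fold, adjusted p = 8.89e-09). FAS had 41.4 and 41.2 CPM in the pair named 4 h, against 21.0 and 21.4 CPM in the pair named 30 min (1.95-fold). TNFRSF10B, the TRAIL receptor DR5, had 164 and 159 CPM in the pair named 4 h, against 111 and 101 CPM in the pair named 30 min (1.53-fold). The pairs did not overlap in any of these 3, as for 47.5% of all genes tested. TNFRSF1A, a receptor of TNF, averaged 30.2 ± 2.35 CPM in the pair named 4 h and 44.6 ± 5.66 CPM in the pair named 30 min (SD, n = 2 each; log2 -0.56). Without the block, 4 rose and 1 fell.

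Antigen presentation genes and immune ligands were higher for 14 of 19 tested (20 listed) and none fell. That compares with 14.8% higher and 13% lower over all genes tested, and the list's median log2 fold change was 0.41. CD83, a dendritic cell maturation marker, had 237 and 235 CPM in the pair named 4 h, against 61.5 and 62.8 CPM in the pair named 30 min (3.80-fold, adjusted p = 4.73e-14). CD40, a member of the TNF receptor superfamily, had 39.2 and 46.9 CPM in the pair named 4 h, against 18.0 and 19.1 CPM in the pair named 30 min (2.33-fold, adjusted p = 1.22e-08). TAP1, a subunit of the peptide transporter, had 192 and 187 CPM in the pair named 4 h, against 111 and 93.0 CPM in the pair named 30 min (1.86-fold). HLA-B had 106 and 107 CPM in the pair named 4 h, against 67.2 and 64.3 CPM in the pair named 30 min (1.62-fold), a value that reads shared with other class I genes make uncertain. None of these 4 genes had pairs that overlapped, as was so for 47.5% of all genes tested. Without the block, 8 were called.

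Interferon regulators and targets moved both ways, with 11 of 27 tested (28 listed) higher and 8 lower, against 14.8% and 13% over all genes. Among those that rose was IRF1, a transcription factor that NF-κB induces, with 257 and 287 CPM in the pair named 4 h, against 99.2 and 107 CPM in the pair named 30 min (2.64-fold, adjusted p = 4.13e-14), and 56.6 and 64.2 CPM in the pair named CLM. GBP1, a guanylate-binding GTPase, had 53.6 and 54.8 CPM in the pair named 4 h, against 12.2 and 13.4 CPM in the pair named 30 min (4.23-fold, adjusted p = 1.15e-13). IFIT2 had 282 and 284 CPM in the pair named 4 h, against 117 and 104 CPM in the pair named 30 min (2.58-fold). STAT5A had 95.4 and 92.5 CPM in the pair named 4 h, against 39.8 and 36.2 CPM in the pair named 30 min (2.48-fold). All 4 were higher in both libraries named 4 h than in either named 30 min. No overlap, in either direction, was seen for 47.5% of all genes tested. Among the 8 that fell were IFI6, OAS1, IFI44, IFIT1, BST2, STAT2 and MX1, with log2 fold changes between -0.63 and -0.37. IFIT1 averaged 98.0 ± 13.3 CPM in the pair named 4 h and 147 ± 40.4 CPM in the pair named 30 min (SD, n = 2 each), against 149 CPM in the pair named CLM. Without the block, 10 rose and 1 fell.

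Genes of DNA replication and mitosis rose modestly, for 20 of 28 listed and tested and with none lower. Over all genes tested 14.8% were higher and 13% lower, and the list's median log2 fold change was 0.33. MCM7, a helicase subunit, had 115 and 107 CPM in the pair named 4 h, against 73.2 and 64.4 CPM in the pair named 30 min (1.62-fold, adjusted p = 4.63e-09). BIRC5 (survivin) had 41.7 and 44.0 CPM in the pair named 4 h, against 27.0 and 26.1 CPM in the pair named 30 min (1.62-fold, adjusted p = 1.11e-06). RRM2, a ribonucleotide reductase subunit, had 78.8 and 94.3 CPM in the pair named 4 h, against 52.4 and 59.2 CPM in the pair named 30 min (1.55-fold). TYMS, thymidylate synthase, had 26.1 and 26.5 CPM in the pair named 4 h, against 14.7 and 17.5 CPM in the pair named 30 min (1.64-fold). The libraries of the pair named 4 h were the higher ones in all 4 of these genes. Of all genes tested, 47.5% had no overlap in either direction. The list had 18 members higher with library totals and 8 without the block. Among CDK inhibitors and p53 targets, 3 of 15 tested (16 listed) rose and 5 fell, against 14.8% higher and 13% lower over all genes tested, so the share that rose was near that of genes at large. CDKN1A (p21) had 64.6 and 74.1 CPM in the pair named 4 h, against 25.2 and 28.9 CPM in the pair named 30 min (2.56-fold, adjusted p = 1.04e-11). BTG2 had 24.7 and 26.9 CPM in the pair named 4 h, against 9.51 and 12 CPM in the pair named 30 min (2.40-fold). CDKN1B (p27) had 30.9 and 28.1 CPM in the pair named 4 h, against 48.0 and 47.0 CPM in the pair named 30 min (1.61-fold lower, adjusted p = 1.27e-06). XPC, a nucleotide excision repair factor, had 18.8 and 18.1 CPM in the pair named 4 h, against 26.3 and 28.4 CPM in the pair named 30 min (1.49-fold lower). Without the block 2 of these 15 rose and 2 fell.

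CREB and CRTC targets fell for 9 of 18 tested (21 listed) and rose for 2, against 13% lower and 14.8% higher over all genes. Their median log2 fold change was the lowest of the lists, at -0.49. SCG2, a secretory granule protein, had 39.4 and 38.3 CPM in the pair named 4 h, against 129 and 128 CPM in the pair named 30 min (3.301-fold lower, adjusted p = 1.52e-12), with 105 and 116 CPM in the pair named CLM. DIO2, a thyroid hormone deiodinase, had 2.32 and 2.53 CPM in the pair named 4 h, against 11.1 and 9.99 CPM in the pair named 30 min (4.32-fold lower, adjusted p = 5.74e-09). G0S2, a lipase inhibitor, rose, with 29.6 and 24.5 CPM in the pair named 4 h, against 13.5 and 9.70 CPM in the pair named 30 min (2.34-fold, adjusted p = 7.31e-09). NR4A1, NR4A2 and FOSB also count among the immediate early factors, and AREG among the growth factors. Without the block, 5 fell and 1 rose.

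Of the SIK kinases and their partners, 3 of 16 fell and 1 rose, against 13% lower and 14.8% higher over all genes tested, and counts this small are near what those shares give for 16 genes. SIK1, itself a CREB target, had 13.7 and 14.4 CPM in the pair named 4 h, against 19.1 and 22.0 CPM in the pair named 30 min (1.47-fold lower, adjusted p = 0.000483), and 0.141 without the block. SIK2 had 49.9 and 58.2 CPM in the pair named 4 h, against 46.0 and 61.7 CPM in the pair named 30 min, and did not pass the test (log2 0.01 ± 0.07). STK11 (LKB1), the upstream kinase, had 165 and 153 CPM in the pair named 4 h, against 201 and 183 CPM in the pair named 30 min (1.21-fold lower). MEF2D, a partner of class IIa histone deacetylases, had 17.6 and 31.3 CPM in the pair named 4 h, against 20.7 and 46.7 CPM in the pair named 30 min (1.35-fold lower), and lost its call without letter C of the pair named 4 h (adjusted p = 0.0882). HDAC9 had 92.8 and 85.3 CPM in the pair named 4 h, against 72.6 and 68.7 CPM in the pair named 30 min (1.26-fold). None of these 16 was called without the block. In the unfolded protein and integrated stress response, 4 of 16 fell and 1 rose, against the same 13% and 14.8% over all genes. CHAC1, a glutathione-degrading enzyme, had 17.2 and 20.9 CPM in the pair named 4 h, against 33.3 and 34.3 CPM in the pair named 30 min (1.77-fold lower, adjusted p = 1.58e-05). DNAJB9 had 30.0 and 23.2 CPM in the pair named 4 h, against 41.6 and 37.4 CPM in the pair named 30 min (1.49-fold lower). HSPA5 and HSP90B1, chaperones of the endoplasmic reticulum, had log2 fold changes of -0.23 and -0.16, and both lost their call without single libraries. For HSPA5 the adjusted p was 0.733 without letter C of the pair named 4 h, 0.116 without letter B of the pair named 30 min and 0.0837 without its letter C. For HSP90B1 it was 0.0954 without letter C of the pair named 4 h and 0.102 without letter C of the pair named 30 min. With DESeq2 size factors or library totals 7 members fell, and without the block 1 did.

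Beyond the lists, the largest folds among called genes with a mean of at least 1 CPM and no overlap lay in lowly expressed genes. Of the 10 higher genes of this rule, 9 (all but GARIN4) reached the level of the filter in fewer than 2 of the 10 libraries outside the pair named 4 h. These 9 were tested only because that pair was high, so their rise is a description. CDH16, a kidney-type cadherin, had 3.45 and 2.97 CPM in the pair named 4 h and no count in the pair named 30 min, so it was at least 42.9-fold higher against a floor of 3 counts over the group. The lincRNA AC023137.1 was at 4.64 and 2.75 CPM in the pair named 4 h with no count in the pair named 30 min, at least 49.4-fold higher on the same floor. STPG3 and the pseudogene AL391646.1 were at least 19.5 and 20.8-fold higher. GARIN4 had 7.23 and 7.71 CPM in the pair named 4 h, against 0.203 and 0.196 CPM in the pair named 30 min (36.2-fold, adjusted p = 8.93e-11). CLASP1-AS1 had 3.45 and 2.59 CPM in the pair named 4 h, against 0.102 and 0.0980 CPM in the pair named 30 min (28.2-fold). The strand setting of the counting is not given in the sources used here, so reads of an antisense gene such as CLASP1-AS1 and of its sense partner cannot be told apart. For the remaining 4, with 1 or 2 reads in the pair named 30 min, ratios of counts were 76 for SNORD81 (interval 13.1 to 3050), 48.2 for AC022217.1 (8.17 to 1950), 41 for RPLP0P3 (10.9 to 345) and 38.6 for AC116366.1 (10.3 to 325). AC022217.1 and RPLP0P3 are processed pseudogenes, which can take reads of their parent genes. GARIN4 starts at 212624474 on the plus strand of chromosome 1, past the end of ATF3 at 212620777 on the same strand. On the minus strand of chromosome 5, AC022217.1 (from 172763258 down) lies past the end of DUSP1 at 172768090. AC116366.1 (from 132473043 down) lies there past the end of IRF1 at 132481609. The part of these neighbours in the 3 rises was not tested.

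The 10 lower genes of that rule were EGR2, KCNE4, ARHGAP20, DIO2, USP51, TMEM170B, TXNIP, RAB7B, NKX6-1 and PLA2G7. TXNIP, an inhibitor of thioredoxin and of glucose uptake, had 8.62 and 8.04 CPM in the pair named 4 h, against 35.4 and 34.5 CPM in the pair named 30 min (4.20-fold lower, adjusted p = 5.60e-12). Its pair named CLM was between them at 21.2 and 21.2 CPM. KCNE4, a potassium channel subunit, had 0.133 and 0.110 CPM in the pair named 4 h, against 1.07 and 1.27 CPM in the pair named 30 min (9.24-fold lower, adjusted p = 0.000566). The other 6, leaving out EGR2 and DIO2, lay under 2 CPM in all 4 libraries, with falls of 3.91-fold (PLA2G7) to 6.00-fold (ARHGAP20). PLA2G7 lost its call without letter B of the pair named 4 h (adjusted p = 0.0849) or letter C of the pair named 30 min (0.1). USP51 and NKX6-1 lost theirs without letter C of the pair named 4 h (0.0505 and 0.0544).

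Called rises of at least 2-fold made up 9.22% of 2256 long non-coding genes tested, 6.36% of 1163 pseudogenes and 19.9% of 211 small RNA and other genes, against 2.96% of 12946 protein-coding genes. Called falls of at least 2-fold were 0.576% of long non-coding genes, 0.172% of pseudogenes and 0.742% of protein-coding genes. Long non-coding genes took 1.85 and 2.31% of gene counts in the pair named 4 h, against 1.38 and 1.81% in the pair named 30 min. The same pair named 4 h had the high share of reads in no gene, 16.5 and 17.1%, and its part in these rises was not tested. Non-coding genes lay near the filter, with medians of 1.10 CPM for long non-coding genes and 1.05 CPM for pseudogenes in the pair named 4 h, against 0.895 and 0.940 CPM in the pair named 30 min. The pair named 4 h alone brought 384 genes through the filter and the pair named 30 min alone 160, where fewer than 2 of the 10 libraries outside the pair reached its level. Of the 2-fold rises, 59 of 208 in long non-coding genes, 37 of 74 in pseudogenes, 16 of 42 in small RNA and other genes and 26 of 383 in protein-coding genes were among the 384. The filter therefore fixed some of the excess of rises over falls. Among genes that needed neither pair, 2-fold rises were 7.29% of 2043 long non-coding genes, 3.46% of 1068 pseudogenes, 15.7% of 166 small RNA and other genes and 2.79% of 12798 protein-coding genes. These shares are a description with no test, and the genes needing neither pair were counted after the values were seen. At any fold, 1994 protein-coding genes were higher and 2127 lower in the fit of all genes, while a fit of protein-coding genes alone gave 2317 higher and 1885 lower, so the balance of directions turned with the genes fitted.

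**Figure D4:**
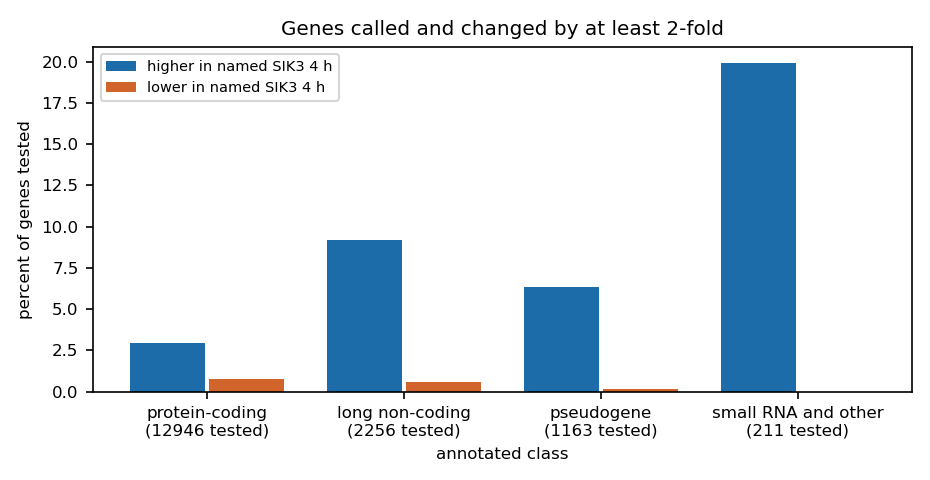
Percent of the genes tested in 4 annotated classes that were called and changed by at least 2-fold, higher (left bars) or lower (right bars) in the pair named SIK3 4 h than in the pair named SIK3 30 min. Rises of that size were 2.96% of protein-coding genes, 9.22% of long non-coding genes, 6.36% of pseudogenes and 19.9% of small RNA and other genes.

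Mitochondrially encoded mRNAs differed chiefly between the replicate letters. Their sum was 2652 and 9672 CPM in the pair named 4 h, against 1201 and 7882 CPM in the pair named 30 min, and 1949 and 8241 CPM in the pair named CLM. With the letter as a block 10 of 13 rose, against 14.8% higher over all genes tested, and in all 10 the pairs overlapped. Without the block none was called, with adjusted p of 0.644 for MT-ND4L, 0.732 for MT-ND4, 0.843 for MT-CYB and 0.904 for MT-CO1.

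The change from 30 min to 4 h was then set against the same change with the control siRNA names, and the 2 changes share no library. The difference of the 2 changes was called for 2279 of 16695 genes (13.7%), with the SIK3 change more positive for 1323 (7.92%) and more negative for 956 (5.73%). With DESeq2 size factors the split was 1143 and 1323, and without the block 110 and 126. By title, the control-named libraries are SIK3 siRNA unstimulated and control siRNA with TNF for 30 min, so under the titles this difference is not one of time changes.

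Among antigen presentation genes and immune ligands the SIK3 change was more negative for 15 of 19 and more positive for none, also with DESeq2 size factors and library totals, against 5.73% more negative over all genes tested. The log2 change of CD40 was 1.22 with the SIK3 names and 3.24 with the control names, a difference of -2.02 ± 0.14 (adjusted p = 6.08e-09). Its control libraries had 214 and 176 CPM named 4 h, against 19.8 and 21.6 CPM named 30 min. CD83 differed by -1.54 ± 0.10 (adjusted p = 3.21e-09) and HLA-B by -1.19 ± 0.11. The list's median change was 0.41 with SIK3 and 1.11 with the control. Interferon genes had 13 of 27 more negative and 1 more positive: STAT5A differed by -1.23 (adjusted p = 6.11e-08), and IFIT2 was the exception at 0.97 (adjusted p = 4.31e-08). TRAF1 (-0.90), CYLD (-0.94), ICAM1 (-0.86), SOD2 (-0.85) and BCL2A1 (-0.92) also had a more negative change with the SIK3 names. That of CCL2 was more positive (0.32, adjusted p = 0.00372), as were those of CXCL8 (0.40) and NFKBIA (0.34). Of 15 chemokines tested, 5 had a more positive and 3 a more negative change, against 7.92% and 5.73% over all genes tested. The 5 differences ran from 0.32 to 0.67 and the 3 from -1.13 to -3.87, the last in a gene of at most 1.21 CPM. Without the block 1 chemokine was more negative and none more positive. Without the block 4 antigen presentation genes and 3 interferon genes were more negative.

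For DNA replication and mitosis the SIK3 change was more positive for 18 of 28 and more negative for none, against 7.92% more positive over all genes tested, at a median of 0.33 with SIK3 and -0.07 with the control. BIRC5 had 147 and 129.9 CPM in the control libraries named 4 h, against 154 and 139 CPM in those named 30 min, a difference in change of 0.77 ± 0.11 (adjusted p = 2.60e-05). RRM2 differed by 0.69 (adjusted p = 9.49e-05). The SIK3 levels of both genes were below the control levels in all libraries of these 2 names. Without the block none of the 28 was called. Among immediate early factors 9 of 22 had a more positive and 4 a more negative change, against 7.92% and 5.73% over all genes tested. Without the block 1 of the 22 was more positive and none more negative. The log2 change of FOS was -1.72 with the SIK3 names and -2.76 with the control names (difference 1.05 ± 0.17, adjusted p = 0.000196). EGR1 differed by 0.52, and ZFP36, of the decay factors, by 0.79. The log2 change of EGR2 was -3.67 with the SIK3 names and -3.53 with the control names (difference -0.14 ± 0.30, adjusted p = 0.825). Among CREB and CRTC targets 4 of 18 had a more positive and 2 a more negative change, against 7.92% and 5.73% over all genes tested. The median log2 change of that list was -0.49 with the SIK3 names and -1.01 with the control names. Without the block 1 of the 18 was more positive and none more negative. The genes with the largest differences were lowly expressed. SIX2, a homeobox factor, had 0.530 and 0.275 CPM in the pair named SIK3 4 h, against 0.254 and 0.245 CPM in the pair named SIK3 30 min, while the control names had 3.58 and 4.34 CPM at 4 h, against 0.110 and 0.0535 CPM at 30 min (difference -4.85).

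**Figure D5:**
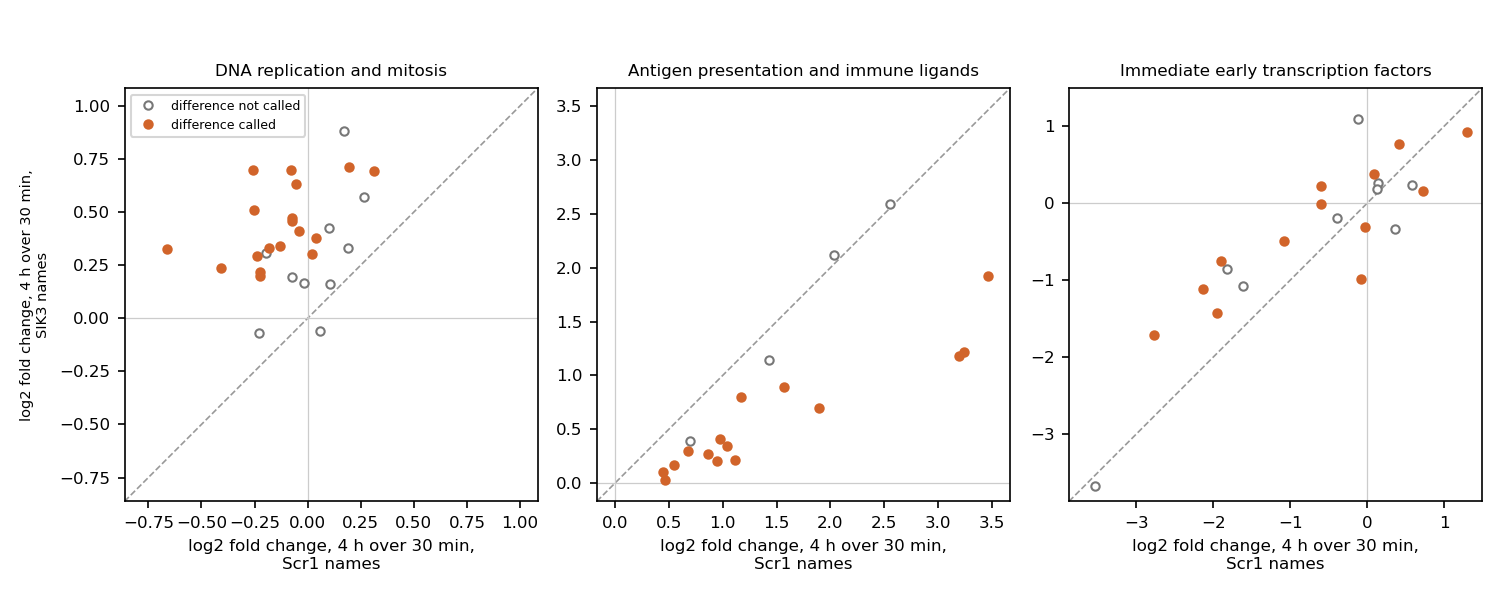
Log2 fold changes, libraries named 4 h over libraries named 30 min, with the SIK3 names (vertical) and the Scr1 names (horizontal) for the tested members of 3 gene lists. Points on the dashed line changed alike, and filled points differ at an adjusted p of 0.05: 18 of 28 DNA replication and mitosis genes, all above the line, 15 of 19 antigen presentation genes and immune ligands, all below it, and 13 of 22 immediate early transcription factors on both sides.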

How the data were processed

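The 12 libraries were made from PANC-1 RNA with RNeasy, DNase I and ScriptSeq kits, per the labels. The deposited values are raw counts per Ensembl gene. STAR 2.05b, edgeR and the build GRCh38 are named in the submitters' processing notes, and the strand setting and annotation release are not given in the sources used here. The column of counts without strand was used, and the 4 summary entries (unmapped, multimapping, no feature, ambiguous) were left out of totals and tests. Of 60669 identifiers 56927 had a symbol, taken from a list of gene names or, where that had none, from GENCODE 29. Gene classes and spans came from GENCODE 29. Multimapping reads, which the gene counts leave out, took 4.94 to 17.6% of reads in the libraries lettered B and 10.2 to 45.3% in those lettered C, where the library named SIK3 4 h was the lowest.

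All 12 libraries were fitted in 6 groups with the replicate letter as a block, by the quasi-likelihood test of edgeR 4.0.16 in R 4.3.3 with TMM scaling, filterByExpr at a minimum count of 10 and Benjamini-Hochberg adjustment at 0.05 over 16695 genes, with 5 residual degrees of freedom. Standard errors were derived from the test statistic. CPM was computed on the TMM-scaled library size. The letters B and C match replicates 1 and 2 of the titles. Their differences correlated between groups at 0.469 to 0.661 over 15 pairs of groups, so the letters pair the libraries. Replicates differed by more than sampling noise, at a chi-square of 17.9 to 36.6 per degree of freedom. The same fit tested the difference of the time changes between siRNA names. SIK3 was also tested by exact permutation over libraries.

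Named genes were SIK1, SIK2 and SIK3, the 10 higher and 10 lower called genes with the largest fold, a symbol, a mean of at least 1 CPM in the higher group and no overlap, up to 4 called members of each list by p, and up to 5 genes in each direction for the difference of changes. Some genes of the lists are not reported here. The comparison, the 23 lists and the named rule were chosen with earlier results of these data known. Alternatives were DESeq2 1.42.0 (size factors and Wald test), limma 3.58.1 (voom), library totals, other filters and thresholds, protein-coding genes, the 4 libraries alone, no block and each library left out. Ratios of counts have exact 95% intervals, which cover counting error only. The scripts were tested on simulated data.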

Additional observations from a re-analysis of the deposited data

Results flagged for a closer look

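The reads counted to no gene made up 16.5% of reads in letter B and 17.1% in letter C of the pair named SIK3 4 h, above the highest share of 10.5% among the 10 other libraries.

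The change from the libraries named 30 min to those named 4 h differed between the SIK3 names and the control names for 54 named genes, tested as an interaction in edgeR with Benjamini-Hochberg adjustment. Values in brackets are the log2 change with the SIK3 names minus that with the control names. The SIK3 change was more positive for AC023137.1 (8.49), AC079866.2 (4.70), GARIN4 (4.32), CLASP1-AS1 (4.28), PPP1R35-AS1 (3.61), MT-ND4 (1.71) and MT-CYB (1.22). It was also more positive for FOS (1.05), IFIT2 (0.97), ZFP36 (0.79), BIRC5 (0.77), RRM2 (0.69), IER5 (0.56), EGR1 (0.52) and TYMS (0.52). The list of more positive changes further held CDKN1B (0.51), DUSP5 (0.48), MT-CO1 (0.47), CXCL8 (0.40), MCM7 (0.38), NFKBIA (0.34) and CCL2 (0.32). The SIK3 change was more negative for KCNN3 (-8.59), ERVMER34-1 (-6.30), FAM131C (-5.46), SIX2 (-4.85), PDZD2 (-4.26), SAA1 (-2.12), CD40 (-2.02) and CD83 (-1.54). It was also more negative for STAT5A (-1.23), FAS (-1.20), HLA-B (-1.19), G0S2 (-0.98), CYLD (-0.94), BCL2A1 (-0.92), TXNIP (-0.91) and BTG2 (-0.90). The list of more negative changes further held TRAF1 (-0.90), ICAM1 (-0.86), SDC4 (-0.86), SOD2 (-0.85), TNIP1 (-0.70), TAP1 (-0.67), RELB (-0.62) and CSF1 (-0.60). More negative changes were also those of GBP1 (-0.59), TNFAIP2 (-0.48), HBEGF (-0.39), MAFF (-0.37), TNFRSF10B (-0.34), PTX3 (-0.29) and NFKB1 (-0.28). The SIK3 change was more negative for HSP90B1 (-0.21). Without the block none of the 13 mitochondrially encoded mRNAs was called for the difference. Mitochondrial genes took 0.632% of gene counts in letter B of the pair named Scr1 30 min. Letter B of the pairs named Scr1 CLM and Scr1 4 h had 0.1545 and 0.1999%. The part of that library in the mitochondrial differences was not tested. For AC023137.1, ERVMER34-1, FAM131C and KCNN3 both libraries of 1 group had no count, so these fitted values depend on the prior count and are no bound. AC023137.1 and CLASP1-AS1 were tested only because the pair named SIK3 4 h was high, so their differences are a description. The same holds for AC079866.2, at 2.12 and 1.16 CPM in that pair and at most 0.340 CPM elsewhere. KCNN3 was high only in the pair named Scr1 4 h (0.667 and 2.13 CPM), with at most 0.153 CPM elsewhere. It was tested only because that pair was high, so its difference is a description too.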

How the results depend on the processing

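Without the replicate block, the comparison of the pairs named 4 h and 30 min called 1180 genes (823 higher, 357 lower), and the difference of changes 236 (110 more positive, 126 more negative). At an adjusted p under 0.01, 1758 genes were higher and 1354 lower, and the difference was called for 1255 genes (743 and 512). With the DESeq2 Wald test 820 genes had a more positive and 1011 a more negative difference, so the split turned. Leaving out 1 library at a time gave 3149 to 3826 genes (1676 to 2054 higher, 1291 to 1783 lower) for the pairs and 1386 to 2289 (856 to 1282 and 525 to 1007) for the difference. An arm left with 1 library is assumed to vary like the other groups. The 2 genes not called whose sign turned were SIK2 and SIK3. On the log2 scale SIK2 was at -0.0135 with DESeq2 size factors, -0.0134 with the Wald test, -0.0402 with library totals, -0.0192 without a filter and -0.0650 to 0.0917 without 1 library. SIK3 was at 0.0061 with the stricter filter, 0.0150 with protein-coding genes only and -0.20 to 0.20 without 1 library. The causes were not tested. Of 93 named genes, 72 kept direction and call throughout and 19 lost the call in at least 1 alternative, 16 of them without the block. Of 10 genes named for the difference, 8 lost the call in some alternative.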

Other observations

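Annotated gene spans differed between the genes called higher and lower, as a description with no test. The median span was 29.7 kb for genes higher in the pair named 4 h, 39.9 kb for genes lower in it and 25.2 kb for all genes tested. Among genes called and changed by at least 2-fold, it was 8.75 kb for the higher and 17.5 kb for the lower. Within protein-coding genes the medians were 38.6 kb for the higher, 41.1 kb for the lower and 33.5 kb for all tested. At 2-fold or more they were 25.3 kb for the higher and 24.1 kb for the lower protein-coding genes, so the order seen over all classes turned there.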
